A study of Homo sapiens with 6 samples.

Results

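Chemokines are small secreted proteins that attract leukocytes, and their receptors sit on the cell surface and signal through G proteins. All 66 protein-coding genes whose symbol marks them as a chemokine, a chemokine receptor or an atypical chemokine receptor were taken by name, out of 58735 genes listed, 19951 of them protein-coding. They comprised 44 ligand genes and 22 receptor genes. Their levels were measured by RNA sequencing of U937, a human myeloid leukaemia line with monocytic features, in 3 control libraries (genotype NC) and 3 libraries with BCL6B overexpression (genotype oeBCL6B). BCL6B, a close relative of BCL6, is a transcriptional repressor with zinc fingers, and the study asks what it does in acute myeloid leukaemia cells. Per the series' design text, overexpression was lentiviral, and all libraries carry the same batch label. The sources used here do not say what the control cells received or whether the cells are 1 clone. The labels number the replicates without tying them to separate cultures, so a p-value here covers library-to-library spread alone, possibly technical. The labels call the cells promyelocytic and give bone marrow as the tissue.

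Chemokines fall into CC and CXC groups by the spacing of their first cysteines, with the XC and CX3C types alongside. The CXC ligands that carry a Glu-Leu-Arg motif, such as CXCL8 (interleukin-8), attract neutrophils through CXCR1 and CXCR2, while CXCL9, CXCL10 and CXCL11 are interferon-inducible ligands of CXCR3. The CC ligands CCL3, CCL4 and CCL5 attract monocytes and T cells, and the atypical receptors bind ligand without the usual G protein signal. Activated monocytes are a known source of CXCL8, CCL3 and CCL4.

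Libraries held 16481014 to 18870186 reads in listed genes. BCL6B had 0 reads in each control and 1215, 1229 and 1712 reads with overexpression, or 14.8, 15.7 and 19.5 FPKM. FPKM is the number of fragments scaled by gene length and library size. The exact permutation p was 0.1 (two-sided), the smallest that 3 libraries against 3 allow. Of 11 monocytic and myeloid markers 9 were on in the sense used below, with MPO at 1975 to 2121 FPKM in controls and 1573 to 1759 FPKM with overexpression, while CD14 stayed at 0.185 FPKM or less and CD68 at 0.0684 FPKM or less. CD33, LYZ, MPO and CYBB fell in the fit described below, 4 of the 9, and none rose (10.1% and 8.18% of all tested genes). In every overexpression library these 4 lay below every control, as did 22.2% of tested genes. CSF1R and SPI1 lay above every control, as did 17.8%, but did not pass. The list summed to 2157 to 2309 FPKM in controls and 1751 to 1936 FPKM with overexpression, with MPO as most of each sum. The part of this shift in the results below was not tested, and in bulk samples fewer cells of a type and less RNA per cell cannot be told apart. Of 5 T cell markers, only CD3D was on, and CD3E, CD3G, CD2 and CD8A had 0.0394 FPKM or less. The 3 NK cell markers summed to 0.185 FPKM or less in every library, and of the B cell markers CD79A was on while MS4A1 and PAX5 were at or near 0. EPCAM was the only other-lineage marker on among the 9 of endothelium, fibroblasts and epithelium, and none of 3 erythroid markers was.

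A member was called on when its level was at least 0.5 FPKM in at least 3 of the 6 libraries. This held for 13 of the 66 genes, 9 ligands and 4 receptors. Ordered by mean level per length, they were CCL5, CXCR4, CXCL8, CCL20, CCL3L1, CCR1, CCL3, CCL4L2, CXCL10, CXCR2, CCR10, CCL4 and CXCL2. CCL5 ranked 166 among all 14662 genes that met the same limit, CXCR4 734, CXCL8 1134 and CCL20 1571, whereas the 7 genes from CCL3 downward ranked between 11070 and 14207. CCL20 lay above CXCL8 in every control and below it in every overexpression library. Of the 53 genes not on, 19 had no read in any library, 18 had fewer than 10 reads over all 6 libraries, and 16 had 10 or more. The 19 without a read were 15 ligands (CCL8, CCL11, CCL13, CCL14, CCL15, CCL15-CCL14, CCL19, CCL21, CCL26, CCL27, CXCL1, CXCL12, CXCL14, CX3CL1 and XCL2) and 4 receptors (CCR6, CCR8, ACKR1 and ACKR3), and 3 counts in a library would be 0.0246 FPKM for the longest of them, CXCL12, and up to 0.306 FPKM for the shortest, XCL2. XCL2 matches XCL1, which had 0 to 4 reads per library, at 98.4% identity over 565 bases. How reads that fit both were counted is not given, so the floor of XCL2 covers assigned reads only. The 18 with fewer than 10 reads never exceeded 4 reads in a library and were CCL1, CCL16, CCL17, CCL18, CCL23, CCL24, CCL28, CXCL5, CXCL6, CXCL9, CXCL13, CXCL17, XCL1, CCR4, CCR7, CXCR1, CXCR5 and XCR1.

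**Figure D1:**
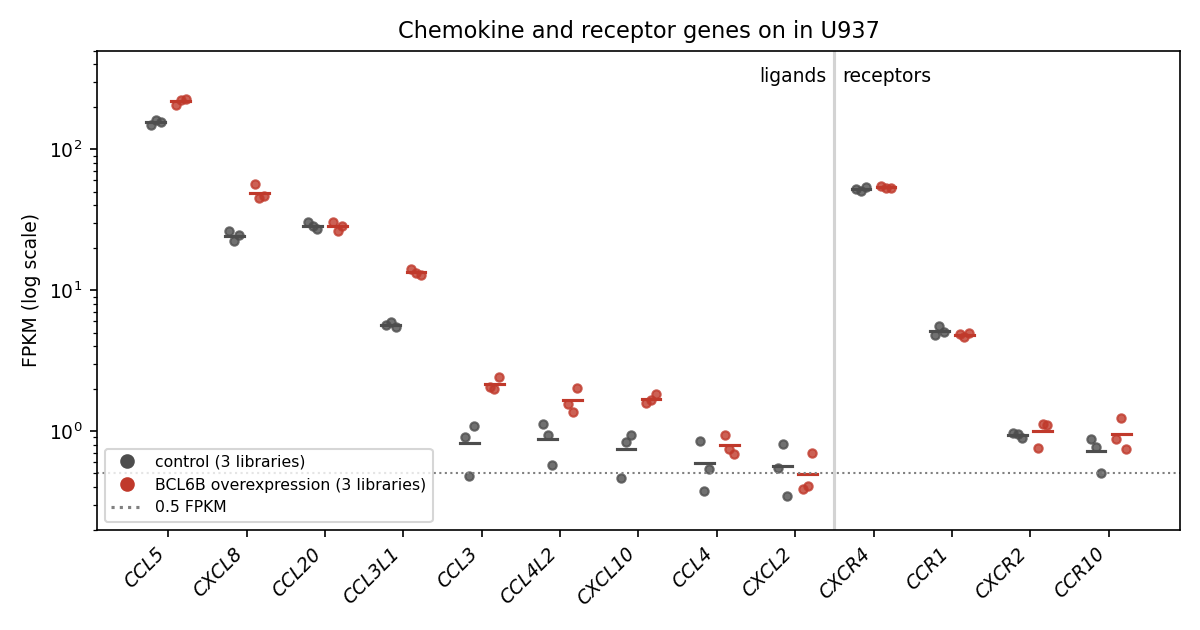
FPKM (log axis) of the 13 genes that were on, each point 1 library and each bar the mean of 3, in control (grey) and BCL6B-overexpressing (red) U937 cells, with the limit of 0.5 FPKM dotted. CCL5, CXCL8, CCL3L1, CCL3, CCL4L2 and CXCL10 do not overlap between groups, whereas the 4 receptors do.

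Between groups, 5 of the 13 genes that were on rose with BCL6B overexpression and 0 fell (limma on log2(FPKM + 1), adjusted over all 14662 tested genes at 0.05). The 5 were the ligands CXCL8, CCL5, CCL3L1, CCL3 and CXCL10. Across all tested genes 8.18% rose and 10.1% fell. The groups did not overlap, with overexpression higher, for 6 of the 13, where this held for 17.8% of tested genes, and for 0 of the 13 with control higher, against 22.2% (40.0% in either direction). The median log2 change was 0.18 over the 13 and -0.02 over all tested genes. No gene was on through the overexpression libraries alone, although CCL3, CXCL10 and CCL4 reached 0.5 FPKM in 2 of 3 controls and in all 3 overexpression libraries.

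**Figure D2:**
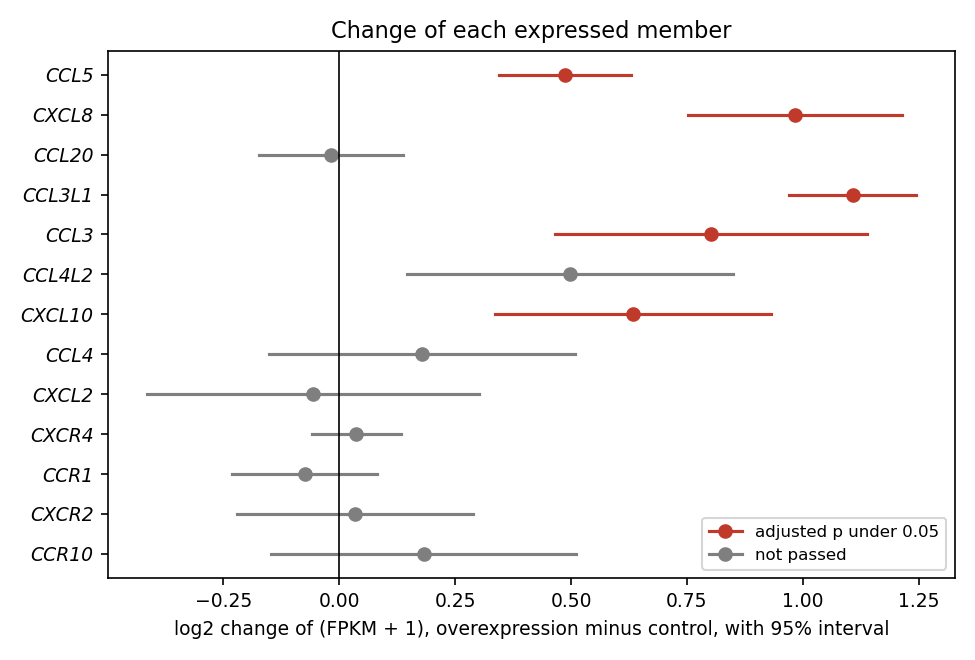
Change of log2(FPKM + 1), overexpression minus control, for the 13 genes that were on, with limma's 95% interval as a bar, in red where the adjusted p was under 0.05. The 5 that rose are ligands, and the intervals of the 4 receptors all include 0.

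Among the CXC ligands, 3 of 14 were on. CXCL8 (ENSG00000169429, GRCh38 chromosome 4, 73740506 to 73743716, plus strand) is the main neutrophil attractant of monocytes. It stood at 26.2, 22.2 and 24.8 FPKM in controls 1 to 3 and at 56.3, 45.4 and 46.3 FPKM in overexpression replicates 1 to 3. Every overexpression library lay above every control, with the mean 2.02-fold higher (log2 change 0.98, SE 0.0973, limma adjusted p = 0.00217). It passed in every alternative fit.

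The other 5 Glu-Leu-Arg ligands taken by name, which share a cluster with CXCL8 on chromosome 4 (73740506 to 74099293), were low. CXCL2 was on only just, at 0.544, 0.805 and 0.346 FPKM in controls and 0.390, 0.411 and 0.699 FPKM with overexpression, from 9 to 22 reads. Its groups overlapped and the interval of the log2 change ran from -0.42 to 0.30 (limma adjusted p = 0.828). CXCL3 lay just outside the limit, at 0.294, 0.371 and 0.390 FPKM in controls and 0.335, 0.656 and 0.540 FPKM with overexpression. CXCL5 and CXCL6 had at most 1 read in a library, and CXCL1 had none, which allows at most 0.116 to 0.133 FPKM per library at 3 counts. CXCL8 was thus the only one of the 6 above 1 FPKM.

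CXCL10 (ENSG00000169245, chromosome 4, 76021117 to 76023497, minus strand), the interferon-inducible ligand of CXCR3, was low. It had 10, 18 and 19 reads in controls and 35, 35 and 43 with overexpression, or 0.463, 0.840 and 0.931 FPKM against 1.58, 1.67 and 1.82 FPKM. The groups did not overlap, and the mean was 2.27-fold higher (log2 change 0.63, SE 0.125, limma adjusted p = 0.0172). The call was lost without overexpression replicate 2 (adjusted p = 0.0563), without overexpression replicate 3 (0.0530) and when low genes were kept in (0.0624), and the adjusted p ran from 0.0113 to 0.0624 over all alternatives. Its neighbours on chromosome 4 were lower still. CXCL11 had 2 to 8 reads per library and CXCL9 had reads in 1 library only.

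Promoter sequence from RefSeq (GRCh38.p14) was at hand for 44 of the 66 genes, as 58 windows of 300 bases around annotated starts, 250 before and 50 after. The 250 bases before the start are shown for both CXC ligands that rose, and for CXCL2 as a Glu-Leu-Arg ligand whose groups overlapped. Capitals mark matches on either strand to the NF-kB motif (10 letters, given by name), the AP-1 motif TGANTCA, the BCL6 motif TTCCTNGAA, the C/EBP motif TTGCNNAA or the interferon-response motif, GAAA, any 2 bases and GAAA again. Positions count back from the start.
CXCL8: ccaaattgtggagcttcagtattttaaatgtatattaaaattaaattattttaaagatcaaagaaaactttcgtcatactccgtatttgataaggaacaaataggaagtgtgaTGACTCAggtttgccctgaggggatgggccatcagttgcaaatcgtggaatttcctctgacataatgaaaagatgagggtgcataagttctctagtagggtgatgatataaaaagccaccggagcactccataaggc
CXCL10: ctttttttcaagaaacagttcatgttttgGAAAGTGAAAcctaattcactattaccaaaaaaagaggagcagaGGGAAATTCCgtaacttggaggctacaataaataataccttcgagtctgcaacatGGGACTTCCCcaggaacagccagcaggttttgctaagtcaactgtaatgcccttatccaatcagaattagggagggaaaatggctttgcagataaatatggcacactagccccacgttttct
CXCL2: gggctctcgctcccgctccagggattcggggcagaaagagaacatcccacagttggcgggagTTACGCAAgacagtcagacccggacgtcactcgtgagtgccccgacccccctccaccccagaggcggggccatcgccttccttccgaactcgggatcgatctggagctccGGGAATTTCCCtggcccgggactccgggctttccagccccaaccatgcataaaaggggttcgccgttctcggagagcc

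The CXCL8 window (chr4:73740319-73740568, plus strand) held 1 AP-1 match, at -137 to -131, and no match to the other 4 motifs as spelled. The CXCL10 window (chr4:76023498-76023747, minus strand) held NF-kB matches at -177 to -168 and -122 to -113 and an interferon-response match at -221 to -212. The CXCL2 window (chr4:74099196-74099445, minus strand) held an NF-kB match at -78 to -69, which overlaps a second match on the other strand by all but 1 base, and a C/EBP match at -188 to -181. The NF-kB letters as spelled were present for 5 of the 6 Glu-Leu-Arg ligands, and in 5.91% of all 35116 RefSeq windows of that length. CXCL8 was the exception. Its window holds tggaatttcc, which differs from the motif in the first letter only. The missing match therefore does not show that an NF-kB site is absent. Spellings 1 letter off were not counted in any window, so there is no share to set beside this stretch. Over the windows of the members, 10 of 58 held the NF-kB motif. AP-1 was in 10 of 58 and in 7.71% of all windows, C/EBP in 7 and 10.5%, the interferon-response motif in 4 and 3.57%, and BCL6 in 7 and 1.56%. Several genes have more than 1 window, so the windows are not independent, and a match describes letters and is not a bound site.

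Among the CC ligands, 6 of 27 were on. CCL5 (RANTES, ENSG00000271503, chromosome 17, 35871491 to 35880793, minus strand), an attractant of T cells and monocytes, was the highest of all 66 genes. It stood at 148, 162 and 157 FPKM in controls and 205, 222 and 229 FPKM with overexpression, from 4109 to 6927 reads. The groups did not overlap, and the mean rose 1.41-fold (log2 change 0.49, SE 0.0600, limma adjusted p = 0.0041). T and NK cells are known to make CCL5, and of their 8 markers listed here CD3D alone was on, at 3.10 to 4.34 FPKM in controls and 4.17 to 5.91 FPKM with overexpression, with overlapping groups.

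CCL3 (MIP-1 alpha) and its relative CCL3L1 encode monocyte-made ligands of CCR1. CCL3L1 (ENSG00000276085, chromosome 17, 36194869 to 36196758, minus strand) stood at 5.63, 5.91 and 5.49 FPKM in controls and 14.2, 13.3 and 12.7 FPKM with overexpression. The groups lay far apart, at 2.36-fold (log2 change 1.11, SE 0.0578, limma adjusted p = 0.000232). CCL3 (ENSG00000277632, chromosome 17, 36088256 to 36090169, minus strand) was lower, at 0.910, 0.478 and 1.08 FPKM in controls against 2.06, 1.99 and 2.40 FPKM, and rose 2.61-fold (log2 change 0.80, SE 0.142, limma adjusted p = 0.0121).

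The transcripts of CCL3 and CCL3L1 match over 1465 bases at 94.1% identity, and the sources used here do not say how reads that fit both were counted, so the split between the genes is uncertain. CCL3L1 took 83.3% to 92.4% of their joint reads in every library. The joint reads were 177, 171 and 168 in controls and 450, 402 and 446 with overexpression. Scaled to library size (RPM) that is 9.57 ± 0.156 against 22.9 ± 0.890 (SD, n = 3 libraries per group), a ratio of 2.39 that does not depend on the split. AC243829.4, an antisense gene over 74.6% of CCL3, had no read in any library. AC243829.1, antisense over 23.3% of CCL3L1, had 1 to 7 reads.

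CCL4 (MIP-1 beta), an attractant of monocytes and T cells, and its copy CCL4L2 were both on at low level. CCL4L2 (ENSG00000276070, chromosome 17, 36210924 to 36212878) stood at 1.13, 0.943 and 0.578 FPKM in controls and 1.56, 1.36 and 2.04 FPKM with overexpression. Its groups did not overlap but it did not pass (log2 change 0.50, 95% interval 0.15 to 0.85, limma adjusted p = 0.0609), and it passed with voom on the recovered reads, at an adjusted p of 0.0394 (0.0382 to 0.170 over all alternatives). CCL4 stood at 0.857, 0.378 and 0.539 FPKM in controls and 0.941, 0.744 and 0.688 FPKM with overexpression, with overlapping groups (adjusted p = 0.413 in the limma fit). The transcripts match over 1101 bases at 94.5% identity, much as CCL3 and CCL3L1 do, and over 409 bases at 98.0%. Their split is uncertain too. The joint reads were 61, 38 and 33 in controls and 77, 61 and 85 with overexpression. The groups met at 61 reads, though they did not overlap once scaled to library size, where the ratio of means was 1.61.

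CCL20 (MIP-3 alpha, chromosome 2, 227805739 to 227817564), the ligand of CCR6, was among the 4 highest members and did not pass. It stood at 30.4, 28.5 and 27.4 FPKM in controls and 30.3, 26.4 and 28.5 FPKM with overexpression. The groups overlapped throughout, and the 95% interval of the log2 change ran from -0.17 to 0.14 (limma adjusted p = 0.881). The 250 bases before the RefSeq starts of CCL3, which rose, and of CCL20 are shown with the same marking.
CCL3: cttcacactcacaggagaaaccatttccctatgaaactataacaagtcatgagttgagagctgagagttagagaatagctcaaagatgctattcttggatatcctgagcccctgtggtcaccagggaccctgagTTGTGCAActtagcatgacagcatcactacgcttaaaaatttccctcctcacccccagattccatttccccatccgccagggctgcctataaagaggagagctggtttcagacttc
CCL20: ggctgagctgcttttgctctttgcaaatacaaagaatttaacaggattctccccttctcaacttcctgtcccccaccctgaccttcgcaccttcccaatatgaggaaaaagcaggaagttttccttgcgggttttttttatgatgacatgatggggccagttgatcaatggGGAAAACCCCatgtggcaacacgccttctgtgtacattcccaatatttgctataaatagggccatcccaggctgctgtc

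The CCL3 window (chr17:36090144-36090393, minus strand), taken at the start nearest to the deposited one, held 1 C/EBP match, at -116 to -109. The CCL20 window (chr2:227813592-227813841, plus strand) held 1 NF-kB match, on the opposite strand at -79 to -70. Neither held the BCL6 letters, nor did the windows of CXCL8 and CXCL10. CCL5 and CCL3L1, which also rose, had no window and were not searched for any motif.

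Most genes of the CC ligands that were on lay close together, the exception being CCL20 on chromosome 2. Of 11 members within chromosome 17 35871491 to 36212878, 5 were on (CCL5, CCL3, CCL4, CCL3L1 and CCL4L2). Of these, 3 rose, where 8.18% of all tested genes did. CCL3 with CCL3L1 and CCL4 with CCL4L2 are the pairs whose split of reads is uncertain, so the counts are not of independent genes. Another 3 of the 11, CCL14, CCL15 and their read-through CCL15-CCL14, had no read. The read-through shares exon bases with both on the same strand, and how reads that fit more than 1 gene were counted is not given. The 6 monocyte and eosinophil attractant genes elsewhere on that chromosome, at 34255218 to 34363231, which include CCL2 and CCL7, held 0 that were on. CCL2 (MCP-1), the classical monocyte attractant, came nearest there, at 0.0822, 0.304 and 0.203 FPKM in controls and 0.321, 0.620 and 0.226 FPKM with overexpression, from 3 to 22 reads. CCL25, a ligand made mainly by thymus and gut, also lay near the limit, at 0.385, 0.389 and 0.408 FPKM in controls and 0.591, 0.340 and 0.505 FPKM with overexpression. Both sets of values overlapped.

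Summed over the 44 ligands, the level was 216, 224 and 220 FPKM in controls and 314, 316 and 326 FPKM with overexpression. CCL5 held 68.6% to 72.5% of the sum in controls and 65.2% to 70.4% with overexpression. The share of CXCL8 was 9.92% to 12.2% in controls and 14.2% to 17.9% with overexpression, and that of CCL3L1 was 2.50% to 2.64% and 3.90% to 4.51%. The share of CCL20 was 12.5% to 14.1% in controls and 8.35% to 9.65% with overexpression, with overlapping FPKM. The sum for the 22 receptors was 58.9 to 60.9 FPKM in controls and 60.6 to 61.7 FPKM with overexpression.

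**Figure D3:**
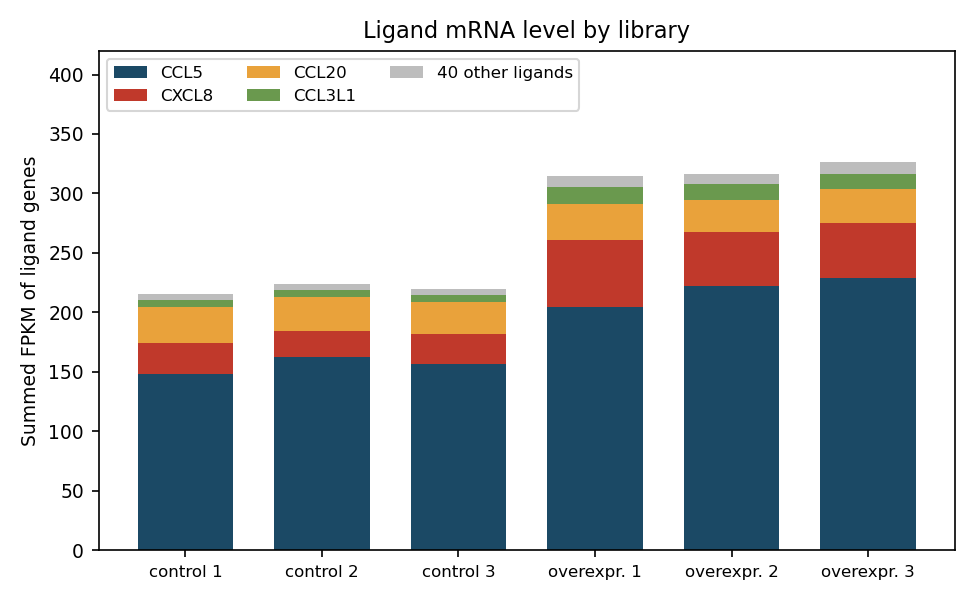
Summed FPKM of the 44 ligand genes in each of the 6 libraries, stacked by gene, with the bar starting at 0. The sum is 216 to 224 FPKM in controls and 314 to 326 FPKM with overexpression, and CCL5 holds the largest part of every bar.

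Of the receptors, 4 of 22 were on and 0 passed in either direction. CXCR4, the receptor of CXCL12 that holds haematopoietic cells in the bone marrow, was the highest and made up 86.3% to 88.3% of the receptor sum. It stood at 52.5, 50.8 and 53.5 FPKM in controls and 54.5, 53.4 and 53.1 FPKM with overexpression. The groups overlapped, and the 95% interval of the log2 change, -0.06 to 0.13, was the narrowest of the 13 (limma adjusted p = 0.572). CCR1, a receptor of CCL3 and CCL5, stood at 4.82, 5.57 and 5.06 FPKM in controls and 4.88, 4.63 and 4.99 FPKM with overexpression (interval -0.23 to 0.08).

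CXCR2, a receptor of CXCL8, stood at 0.977, 0.952 and 0.892 FPKM in controls and 0.756, 1.13 and 1.10 FPKM with overexpression (interval -0.22 to 0.29). CCR10, a skin-homing receptor of lymphocytes, stood at 0.872, 0.776 and 0.506 FPKM and at 0.872, 1.24 and 0.743 FPKM (interval -0.15 to 0.51). Both overlapped between groups. CNTNAP1, on the opposite strand over 14.5% of CCR10, was at 4.55 to 6.24 FPKM, and since the use of strand in counting is not given here, reads of these genes cannot be told apart there.

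CCR10 had no window. Of the other receptor genes that were on, CCR1 held the BCL6 letters in the 250 bases before its start, at -206 to -198 on the opposite strand (chr3:46208314-46208563, minus strand); its interval above includes 0. That window is shown beside that of CXCR4 (chr2:136118150-136118399, minus strand), which held none of the 5 motifs.
CCR1: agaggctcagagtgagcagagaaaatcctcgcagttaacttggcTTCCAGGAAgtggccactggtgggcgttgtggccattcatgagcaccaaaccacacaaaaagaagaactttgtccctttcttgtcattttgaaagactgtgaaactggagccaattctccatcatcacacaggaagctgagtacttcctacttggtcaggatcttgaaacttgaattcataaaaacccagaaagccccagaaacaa
CXCR4: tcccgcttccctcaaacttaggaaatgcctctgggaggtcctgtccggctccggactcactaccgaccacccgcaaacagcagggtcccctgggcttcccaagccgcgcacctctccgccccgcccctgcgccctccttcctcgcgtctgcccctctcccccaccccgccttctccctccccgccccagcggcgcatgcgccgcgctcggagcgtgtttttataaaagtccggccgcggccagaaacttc

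Set side by side, ligands that were on did not always have transcripts of their receptor beside them. For CCL5 and CCL3, CCR1 was on. For CXCL8, CXCR2 was on, while CXCR1 had a single read in all. CCL20 stood near 28 FPKM in both groups with no read for CCR6. Of CCR6, 69.2% of exon bases are shared on the same strand with Z94721.2, which had 5 to 27 reads, so reads of the shared bases cannot be assigned. CXCR3, the receptor of CXCL10, had 0 to 10 reads. CXCR4 was high with no read for CXCL12, at most 0.0246 to 0.0285 FPKM per library at 3 counts, and of the ligands of CCR10, CCL27 had no read and CCL28 had 0 to 2. The same limit as for CCR6 holds for CCL27. It shares 97.7% of its exon bases on the same strand with AL162231.4, which had 0 to 3 reads.

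Members below the limit were compared on reads, with limma's voom on all 20643 genes that had at least 10 reads in total, a fit added after the data were seen. Of the 16 members in it, 0 rose and 1 fell, where 3.29% of the 6167 genes below the limit rose and 0.892% fell (8.85% and 9.71% of all 20643). The gene that fell was CXCR6, the receptor of CXCL16 found on T and NK cells, with 19, 11 and 18 reads in controls and 5, 4 and 6 with overexpression (voom log2 change -1.62, adjusted p = 0.0334). It did not pass in limma on log2(FPKM + 1) without a filter (adjusted p = 0.0758), where 2.36% of 30382 genes rose and 2.87% fell. Its ligand gene CXCL16 had 0 to 6 reads.

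The groups did not overlap for CX3CR1, higher with overexpression, nor for CXCR6 and ACKR4, lower with it, and among genes below the limit the shares were 11.7% higher and 6.37% lower. CX3CR1, the fractalkine receptor of monocytes, had 3, 9 and 8 reads in controls and 14, 14 and 10 with overexpression. ACKR4, an atypical receptor of CCL19 and CCL21, had 4, 7 and 2 reads against 0, 2 and 1, matches the pseudogene CCRL1P1 at 99.4% identity over 1053 bases, and touched the control range in overexpression replicate 2 in reads but not in FPKM. Neither CX3CR1 nor ACKR4 passed, with voom adjusted p of 0.260 and 0.192.

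**Figure D4:**
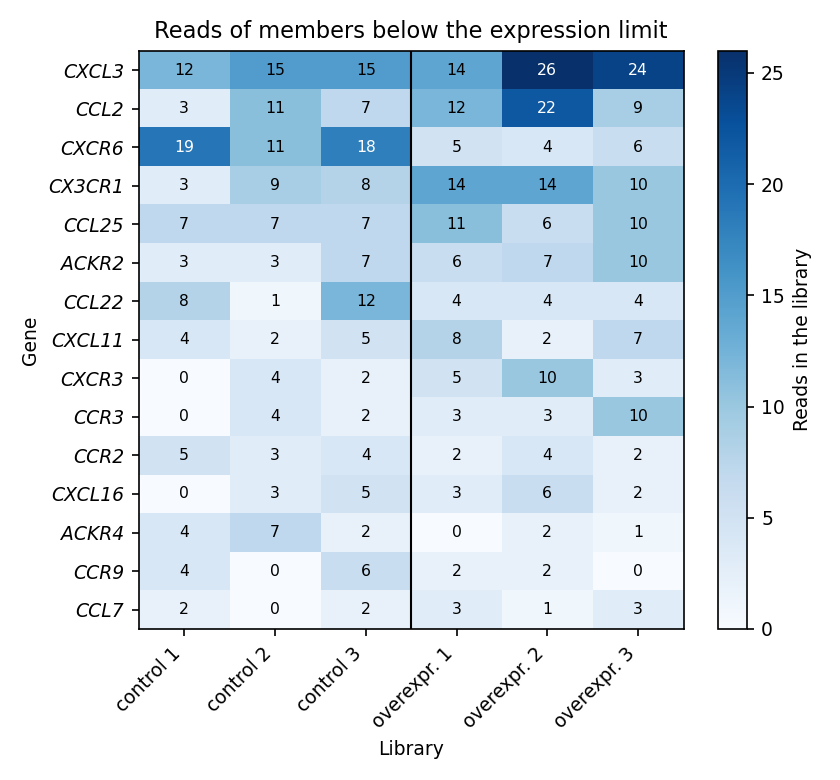
Reads in each library for 15 of the 16 genes below the limit of 0.5 FPKM that had at least 10 reads in total, with controls left of the line and darker cells for more reads. CXCR6 holds 11 to 19 reads in controls and 4 to 6 with overexpression, and no gene exceeds 26 reads.

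Genes of the wider pathway were taken from 5 lists of 76 genes, of which 60 were tested, 13 rose and 6 fell, with a median log2 change of 0.05. Of all tested genes 8.18% rose and 10.1% fell, which is the background for the counts of each list below. Chemokine-like genes outside the naming rule had 0 rises and 0 falls among 5 tested. Of 9 tested receptors for other attractants 3 rose and 0 fell. C5AR1, the complement C5a receptor, stood at 1.64, 1.82 and 1.80 FPKM in controls and 4.55, 4.78 and 4.43 FPKM with overexpression, 2.62-fold higher (limma adjusted p = 0.000473). LTB4R, a leukotriene B4 receptor, and S1PR4, a sphingosine 1-phosphate receptor, rose 1.18-fold and 1.36-fold.

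Of 22 tested genes that carry the signal inside the cell 4 rose and 2 fell. PIK3CG, the phosphoinositide 3-kinase that G protein subunits activate, fell to 51.0% of control, from a mean of 1.78 to 0.907 FPKM with no overlap (limma adjusted p = 0.0113), and ELMO1, an activator of the GTPase RAC, fell to 83.9%. PLCB3, a phospholipase C gene, rose from a mean of 8.54 to 10.7 FPKM. RAC1 and the SRC-family kinase genes LYN and FGR rose 1.14-fold, 1.19-fold and 3.58-fold, FGR having been tested through its overexpression libraries alone.

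Of 11 tested genes that end or tune receptor signals 2 rose and 1 fell. RGS16 and RGS19, which shorten G protein signals, rose 6.19-fold and 1.32-fold, and RGS18 fell to 67.8%. RGS16 stood at 9.84, 9.37 and 11.1 FPKM in controls and at 62.0, 62.7 and 62.8 FPKM with overexpression, far above every control (limma adjusted p = 1.6e-05).

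Of 13 tested protease and glycosaminoglycan genes, whose products trim or hold chemokines, 4 rose and 3 fell. MMP9, the heparan sulfate enzyme gene NDST1 and the syndecan gene SDC4 rose 1.49-fold, 1.51-fold and 1.60-fold. The serine proteases CTSG and PRTN3, known to trim CXCL8 and other chemokines, fell to 49.1% and 56.4%, and SRGN, the granule proteoglycan that binds chemokines, fell to 56.5%. Of the 19 pathway genes called, 11 passed in all 6 fits that left out 1 library, and 8 did not, PLCB3, FGR, S1PR4, LTB4R, LYN, RAC1 and ELMO1 among them, with adjusted p up to 0.134.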

How the data were processed

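The values are FPKM per gene, deposited by the authors for 6 libraries beside each gene's length, per the file headers. The submitters' processing notes name cutadapt 1.9, a read trimmer, and GRCh38. Aligner, counter, strand and multiply mapped reads: not given in the sources used here. FPKM times gene length gave whole multiples of 1 step per library for 100% of 139702 values above 0 (tolerance 0.01), and reads were recovered from these steps.

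Genes with at least 0.5 FPKM in at least 3 libraries (14662) entered a limma fit (version 3.58.1, R 4.3.3) of log2(FPKM + 1) that let the variance follow the mean level, and p-values were adjusted by Benjamini-Hochberg over all of them. A log2 change on this scale understates that of low genes. The 95% intervals are limma's and rest on the spread between libraries. Floors, 3 counts per library, cover counting error only. Coordinates of all 66 members equal GENCODE 29. Copies were sought with BLAST+ 2.17.0.

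Named genes were every member that was on or near the limit (a mean of at least 0.25 FPKM), and up to 6 called genes per pathway list. Other members named are so for the pairing of ligands with receptors or for groups that do not overlap, and were chosen after their values were seen. The values of 1 member and 1 marker are not reported here. The members and lists were chosen with earlier results of these data known. Alternatives were the pseudocount, the filter, the scaling, the trend, weights for each library, a block on replicate number, voom, the threshold and leaving out each library.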

Additional observations from a re-analysis of the deposited data

How the results depend on the processing

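BCL6B, CXCL8, CCL5 and CCL3L1 kept their direction and their call in all 20 alternatives. CCL3 and CXCL10 did not pass at a threshold of 0.01, which left 3 members rising, 397 and 410 of all tested genes rising and falling, and 4 and 3 pathway genes. At 0.1, 2284 of all genes fell. Leaving out 1 library left 4 to 5 members rising and 0 to 0 falling, 604 to 1014 of all genes rising and 618 to 1258 falling, and 6 to 11 pathway genes rising and 5 to 6 falling, with a BCL6B log2 change of 4.02 to 4.21. Without the filter 716 of 30382 genes rose, 872 fell, and 8 pathway genes rose. With voom on genes of at least 10 reads, added after the data were seen, 1827 rose and 1 member, CXCR6, fell. With a limit of 0.1 FPKM in 3 libraries 23 members were on.

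Of the 8 members that did not pass, 3 changed sign near 0, CCL20, CXCL2 and CXCR2. The log2 change of CCL20 was 0.0133 after quantile normalization and ran from -0.0644 to 0.0320 when 1 library was left out. That of CXCL2 ran from -0.161 to 0.0508 and that of CXCR2 from -0.0155 to 0.122. The cause was not tested. With the replicate number as a block, 5 members rose and 0 fell, as without it. Deviations of same-numbered libraries had correlations of 0.0511, 0.110 and -0.0019, against -0.0909 to 0.0386 for unlike numbers. These small values do not settle whether the numbers mark pairs. The labels do not say so, and the numbers were not taken as pairs. Depth limits the 7 genes from CCL3 downward, with 9 to 72 reads per library.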
